A study of Mus musculus with 5 samples.

Results

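Cholesterol is built from acetyl-CoA through mevalonate, the prenyl diphosphates, squalene and lanosterol, and the genes described here encode 8 enzymes along that route. They were taken as all transcripts of the deposited expression table named Hmgcs1, Mvk, Idi1, Fdps, Fdft1, Sqle, Lss or Cyp51, joined by transcript to the deposited binding table. This gave 19 of 55350 transcripts and 8 of 21633 named genes, and 7 of the 8 genes had a signal. Testes of 3-month-old mice were studied in 5 libraries. Messenger RNA came from Taf7l knockout males (Taf7l-/Y) in 1 library and from wild-type males in 1 library, each a pool of 6 RNA extracts. ChIP-seq of testis labelled wild type was made for TAF7L, for RNA polymerase II (Pol II) and, as the negative control, for IgG, in 1 library each. The shared ChIP protocol names chromatin of both genotypes and 10 mice. TAF7L is an X-linked paralogue of TAF7, a subunit of the general transcription factor TFIID, and the series title sets it beside the TBP-related factor Trf2 in spermiogenesis. How the Taf7l allele was disrupted is not stated in the labels.

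In most tissues the genes of this pathway are switched on together by the transcription factor SREBP2 when membrane sterol is low, and SCAP and the INSIG proteins sense that sterol. The testis uses cholesterol in Leydig cells for androgens and in germ cells for membranes. Lanosterol demethylase, the product of Cyp51, makes a sterol intermediate that is known as a meiosis-activating sterol. The male germ line has its own route of control, in which the cAMP-responsive factor CREM acts on Cyp51.

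With 1 library per condition there is no spread between mice, and differences are given by size with no test. The expression signal has no named unit. Transcripts of the same span differed in level but had nearly the same ratio between the libraries, as division by different transcript lengths would give, and it was read as a level per length. Each value is printed with the standard deviation (SD) deposited beside it, whose basis the header does not give. This SD was read as technical spread within a library and not as spread between mice. Change is log2((knockout + 1)/(wild type + 1)), and a gene was called at 2-fold. The labels give 100 to 200 M reads (M for 1e+06) per RNA library. Taf7l itself had a signal of 2.04 ± 0.60 in the knockout library and 13.2 ± 1.56 in the wild-type library, a log2 change of -2.22. The median log2 change of 12392 genes whose signal averaged 1 or more was 0.40.

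Cell type markers differed between the pools. Sums below run over every listed marker with a row, and counts run over those whose signal averaged 1 or more. Of all 12392 genes compared, 7.35% were called higher and 7.31% lower in the knockout library. Summed signals of late spermatid markers were 12010 in the knockout library and 67070 in the wild-type library, and 8 of 8 were lower by 2-fold or more. Round spermatid markers summed to 443.6 and 1010 in knockout and wild type, with 4 of 6 lower. Sertoli cell markers summed to 1690 in the knockout library and 858.9 in the wild-type library, with Clu alone at 1076 and 564. Of these markers 4 of 9 were called higher, Clu not among them, and all 9 had a positive change. Spermatocyte markers summed to 3072 and 3218 in knockout and wild type, with Ldhc alone at 2307 and 2666. Of the 8 spermatocyte markers 7 had a positive change, 1 of them called higher, and Ldhc had a negative one. Leydig cell markers summed to 1577 in knockout and 1930 in wild type, with Insl3 alone at 1052 and 1686. Of the 7 Leydig markers 5 had a positive change, 3 of them called higher, and 2 had a negative one, Insl3 among them. Of the other lists, 2 of 4 spermatogonial (sums of 99.4 and 43.5 in knockout and wild type), 3 of 6 macrophage (99.2 and 40.8), 3 of 5 peritubular (101.9 and 46.2) and 0 of 3 adipocyte markers (20.1 and 15.8) were higher, and no Leydig marker or marker of these lists was called lower. All 5 epididymal markers that could be counted were higher, and the 7 listed ones summed to 182.1 in knockout and 0.686 in wild type. Of these, Lcn5 was at 0 in wild type. The 5 counted ones were at 0.44 or less in wild type and averaged 1 or more only through the knockout library. Their higher calls, here and after the scaling below, were thus largely fixed by the way they were counted. With knockout signals scaled to a median change of 0, the calls were 8 of 8 late and 4 of 6 round spermatid markers lower, 5 of 5 epididymal and 1 of 9 Sertoli markers higher, and 2 higher and 2 lower among Leydig markers. The spermatocyte, spermatogonial, macrophage and peritubular lists then had 0 calls and the adipocyte list 1 lower. Of all 12392 genes, 127 were called higher and 1577 lower under that scaling. In bulk testis, fewer cells of a type and less RNA per cell cannot be told apart, and the part of cell makeup in the changes below was not tested.

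None of the 7 measured enzymes changed by 2-fold. The counts were 0 of 7 in each direction, against 7.35% of all genes called higher and 7.31% called lower in the knockout library. For so few genes such counts say little. The knockout value was the larger for Mvk, Idi1, Fdps and Lss and the smaller for Fdft1, Sqle and Cyp51. The median log2 change of the 7 genes was 0.18, which is 0.22 below the median of all genes. Their signals summed to 189.2 in the knockout library and 188.6 in the wild-type library, a ratio of 1.00. Differences of both signs cancelled in the sum, and the gap between the libraries exceeded the sum of both SDs for Mvk, Idi1, Fdft1 and Lss. The signals of all transcripts summed to 1387566 in the knockout library and 1101497 in the wild-type library. The ratio of 1.00 thus holds for the signals as deposited and is not an unchanged share of the library.

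**Figure D1:**
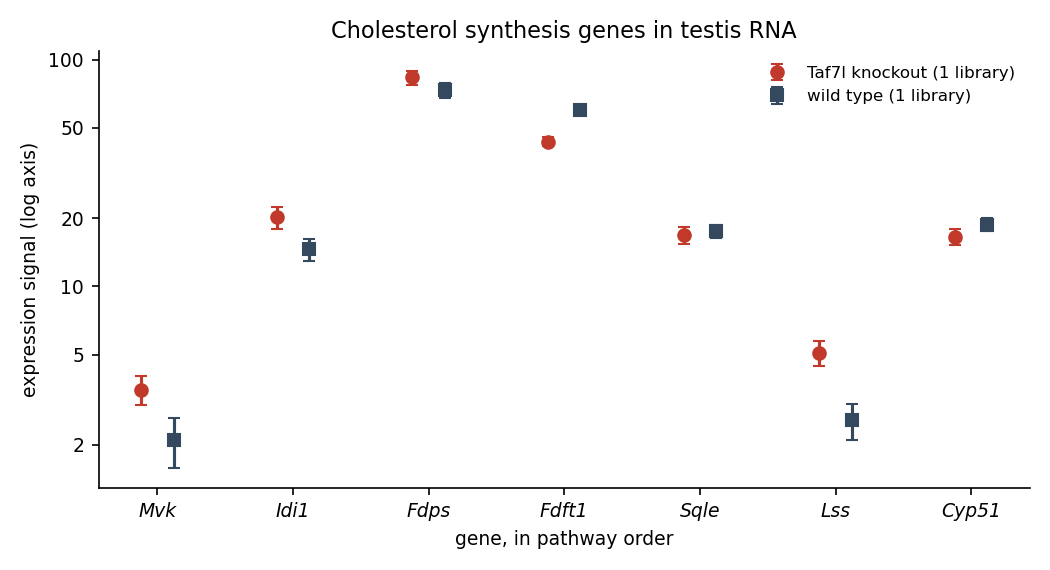
Expression signal (log axis) of the 7 measured enzymes in pathway order, with circles for the Taf7l knockout library, squares for the wild-type library and bars for the deposited SD. Fdft1 lies lower in the knockout library (43.5 against 59.7), Lss and Mvk lie higher, and the bars of Fdps, Sqle and Cyp51 overlap.

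The early enzymes make mevalonate and turn it into the prenyl diphosphates. Hmgcs1, the cytosolic HMG-CoA synthase that makes HMG-CoA from acetoacetyl-CoA, could not be measured. Its 6 transcripts all lie on an unplaced contig of chromosome 13 in mm9, for example at 114710 to 132325 and at 308620 to 326235, and all were listed at 0 in both RNA libraries and in every binding class. The same held for all 303 transcripts on the 11 unplaced contigs, whereas 50213 of 55047 transcripts on placed chromosomes had a signal in at least 1 RNA library. The zeros of Hmgcs1 are therefore no measure of its expression.

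Mvk (chromosome 5, 114894315 to 114910599, mm9) encodes mevalonate kinase, which phosphorylates mevalonate. It had the lowest signals of the 7 genes, 3.51 ± 0.51 in the knockout library and 2.11 ± 0.53 in the wild-type library. The log2 change was 0.54 and the gap was 1.36 times the sum of the SDs. Its 4 transcripts ranged from 1.54 to 3.51 in knockout and from 0.931 to 2.11 in wild type, and their log2 changes ran from 0.40 to 0.67. The 4 are transcripts of the same gene in the same libraries, so their shared sign is not separate support. Mmab, a gene of cobalamin metabolism that lies 278 bp away, had 2.72 in knockout and 1.085 in wild type.

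Idi1 (chromosome 13, 8884852 to 8891642) encodes the isomerase that interconverts isopentenyl and dimethylallyl diphosphate. Its signal was 20.15 ± 2.24 in the knockout library and 14.5 ± 1.58 in the wild-type library, a log2 change of 0.44 and a gap of 1.47 SD sums. This change was 0.04 above the median of all genes. Its neighbouring paralogue Idi2, known from muscle, was close to absent, with 0.013 in knockout and 0.042 in wild type.

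Fdps (chromosome 3, 88897510 to 88905867) encodes farnesyl diphosphate synthase, whose product feeds squalene, prenylated proteins, dolichol and ubiquinone. It was the most abundant of the set, with 83.5 ± 6.04 in the knockout library and 73.4 ± 5.57 in the wild-type library. The log2 change was 0.18 and the gap was 0.87 of the summed SDs, so the ranges overlapped. Fdps stood at percentile 92.1 of all genes in knockout and 90.5 in wild type. The 7 genes that draw on its product or act beside it in the prenyl branch gave 0 higher and 0 lower calls, against 7.35% and 7.31% of all genes, which for so few genes says little. Their median log2 change was 0.62. Fnta, the shared subunit of the protein farnesyl and geranylgeranyl transferases, led them with 72.4 ± 4.78 in knockout and 55.5 ± 3.75 in wild type.

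The enzymes from squalene to lanosterol commit farnesyl diphosphate to sterols. Fdft1 (chromosome 14, 63763988 to 63797328) encodes squalene synthase, which joins farnesyl diphosphate molecules into squalene. It had 43.5 ± 2.01 in the knockout library and 59.7 ± 2.20 in the wild-type library, 0.729 of the wild-type level. The log2 change was -0.45, which is 0.85 below the median of all genes, and the gap was -3.85 SD sums. Among the 7 genes this was the largest gap in units of SD. A second transcript, which reaches 1087 bp further at the higher coordinate, had 40.2 in knockout and 55.15 in wild type. Ctsb, which encodes the lysosomal protease cathepsin B, overlaps the Fdft1 interval by 771 bp and had 29.3 in knockout and 14.5 in wild type. Whether counting used strand is not stated, so reads in that overlap cannot be told apart.

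Sqle (chromosome 15, 59146647 to 59162748) encodes squalene epoxidase, a rate-limiting oxygen-dependent step. Its signals were 16.8 ± 1.39 in the knockout library and 17.5 ± 1.17 in the wild-type library, a log2 change of -0.05, with overlapping ranges. A second transcript had 15.9 and 16.4 in knockout and wild type.

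Lss (chromosome 10, 75994372 to 76016679) encodes lanosterol synthase, which folds squalene epoxide into the sterol ring system. It had 5.10 ± 0.65 in the knockout library and 2.56 ± 0.46 in the wild-type library. The ratio of 1.99 was the largest of the set and the gap was 2.31 SD sums. With 1 added to each signal the log2 change was 0.78, within the 2-fold limit. A second transcript of the same span had 3.21 in knockout and 1.63 in wild type.

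Cyp51 (chromosome 5, 4080674 to 4104697) encodes the cytochrome P450 that removes a methyl group from lanosterol, the only cytochrome P450 of the route. Its signal was 16.5 ± 1.36 in the knockout library and 18.7 ± 1.24 in the wild-type library. The log2 change was -0.17 and the gap was -0.85 SD sums, so the ranges overlapped. Crem, the germ cell regulator named above and the most abundant of 10 regulator genes, had 70.8 ± 10.5 in knockout and 87.4 ± 12.96 in wild type, also with overlapping ranges.

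The order of levels was similar at the ends and differed in the middle. In the knockout library it ran Fdps, Fdft1, Idi1, Sqle, Cyp51, Lss and Mvk, where Idi1 overlapped Sqle and Sqle overlapped Cyp51 within their SDs. In the wild-type library it ran Fdps, Fdft1, Cyp51, Sqle, Idi1, Lss and Mvk, where Cyp51 overlapped Sqle and Lss overlapped Mvk. Idi1 thus held rank 3 in knockout and rank 5 in wild type. Fdps made up 44.1% of the summed signal of the set in knockout and 38.9% in wild type, and Fdft1 made up 23.01% and 31.7% in knockout and wild type. The ratio of Fdps, which makes farnesyl diphosphate, to Fdft1, which consumes it, was 1.92 in the knockout library and 1.23 in the wild-type library.

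Signs depended in part on how the libraries were scaled. When knockout signals were multiplied by 0.711, so that the median change of all genes was 0, Idi1 moved to -0.02 and Fdps to -0.30, and both changed sign. Mvk and Lss stayed positive at 0.17 and 0.38, and Fdft1, Sqle and Cyp51 stayed negative at -0.93, -0.51 and -0.63. The calls of the set remained 0 higher and 0 lower. All gaps and overlaps of SD ranges are given for the signals as deposited and were not computed after this scaling. Over all genes the same scaling gave 127 higher and 1577 lower genes, against 911 and 906 with the signals as deposited.

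**Figure D2:**
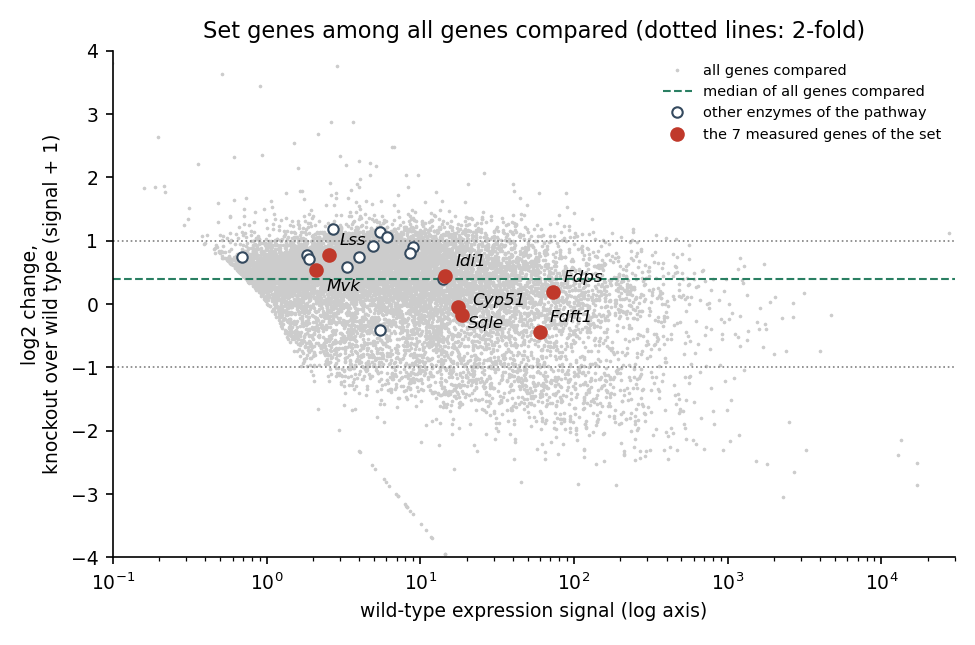
Log2 change of knockout over wild type against wild-type signal (log axis) for all genes compared (grey, 64 of 12392 outside the drawn range), with the 7 measured enzymes in red and other pathway enzymes as open circles. All 7 lie between the dotted 2-fold lines, and Fdft1, Sqle, Cyp51 and Fdps lie below the dashed median of 0.40.

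The rest of the pathway had mostly positive changes. Of 13 other enzymes, 3 passed 2-fold upward in the knockout library and 0 downward, against 7.35% and 7.31% of all genes. Their median log2 change was 0.78, where that of all genes was 0.40, and 12 had a positive change, or 11 after the same scaling, where Acat2 turned negative. Their signals summed to 122.7 in the knockout library and 67.9 in the wild-type library. The 3 called genes all act after Cyp51. Sc5d, the sterol C5-desaturase, had 7.41 ± 0.89 and 2.70 ± 0.49 in knockout and wild type, a log2 change of 1.19. Lbr, a nuclear membrane protein with sterol reductase activity, had 13.2 ± 1.20 in knockout and 5.45 ± 0.67 in wild type, a change of 1.14. Msmo1, the oxidase of the C4 methyl groups, had 13.65 ± 1.61 in knockout and 6.03 ± 1.06 in wild type, a change of 1.06. After rescaling to a median change of 0, none of the 3 passed 2-fold.

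The 5 other late enzymes had positive changes that stayed within 2-fold with 1 added to each signal. Dhcr7, a late sterol reductase, had 10.15 ± 1.21 in knockout and 4.92 ± 0.83 in wild type, a plain ratio of 2.06. Ebp, the sterol isomerase, had 15.7 ± 2.09 and 8.59 ± 1.67 in knockout and wild type. Nsdhl, the C4 decarboxylase, had 7.32 ± 1.35 in knockout and 3.98 ± 0.89 in wild type. Hsd17b7, its partner ketoreductase, had 1.82 ± 0.92 in knockout and 0.688 ± 0.42 in wild type, a plain ratio of 2.64 with overlapping ranges. Tm7sf2, a second sterol reductase, had 5.52 ± 1.56 in knockout and 3.34 ± 1.43 in wild type, also overlapping. These 8 genes after Cyp51 all lay above the median of all genes, between 0.59 and 1.19, while Cyp51 lay below it at -0.17. All counted Sertoli, spermatogonial, macrophage and peritubular markers also lay above it. So did the epididymal ones, which were counted only through their knockout signal. No round or late spermatid marker did, and the Leydig, spermatocyte and adipocyte lists were mixed. These descriptions carry no test.

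Among the other early enzymes, the cytosolic thiolase Acat2 had 18.9 in knockout and 14.1 in wild type. Acat1, the mitochondrial thiolase, is counted among the 13 other enzymes and had 17.6 in knockout and 8.97 in wild type. Mvd, the mevalonate diphosphate decarboxylase, had 3.86 in knockout and 1.83 in wild type, and Ggps1, which makes geranylgeranyl diphosphate, had 3.73 and 1.90. Pmvk, the phosphomevalonate kinase, was the only other enzyme with a negative change, with 3.87 ± 1.01 in knockout and 5.475 ± 1.29 in wild type, which overlap within their SDs. It and Mvk act in succession on mevalonate and had opposite signs, -0.41 and 0.54.

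**Figure D3:**
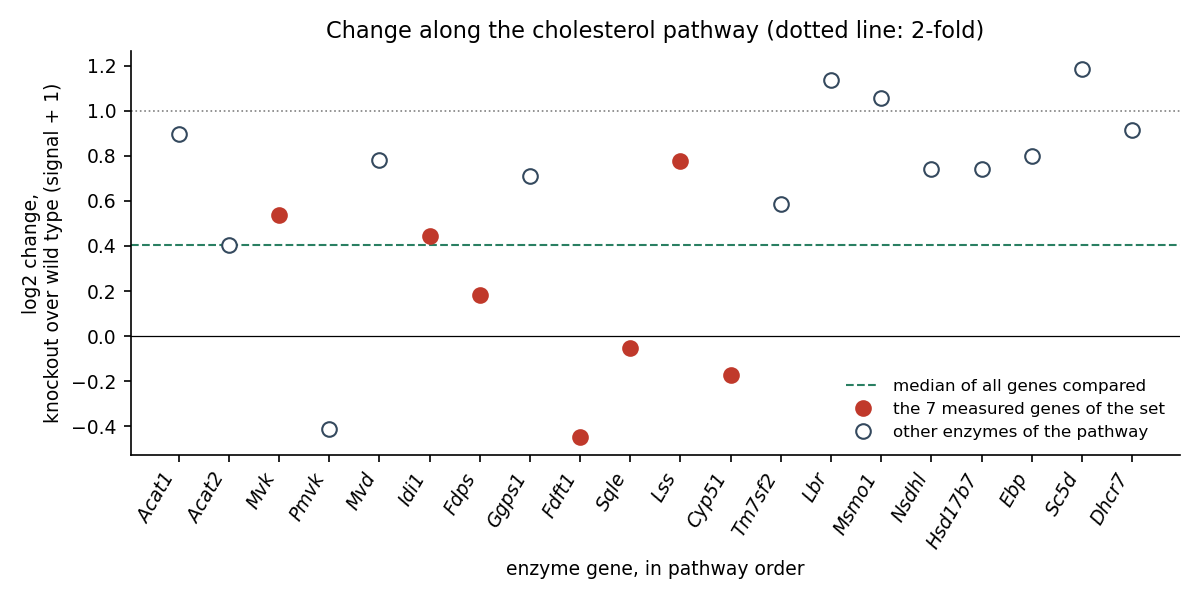
Log2 change of knockout over wild type for 20 measured enzymes in pathway order, red for the 7 measured genes of the set and open for the 13 others, with the dashed line at the median of all genes (0.40) and the dotted line at 2-fold. The 8 enzymes after Cyp51 lie between 0.59 and 1.19, and the lowest values are Fdft1 (-0.45) and Pmvk (-0.41).

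Regulators and transport genes completed the picture of sterol supply. Of 10 regulators, 1 was called higher and 0 were called lower, against 7.35% and 7.31% of all genes, and their median log2 change of 0.43 was 0.03 above that of all genes. The called gene was Scap, the escort of the SREBP proteins, with 12.3 ± 0.88 in knockout and 4.76 ± 0.53 in wild type. Of 15 genes of uptake, storage, transport and efflux, 11 were measured, of which 2 were called higher and 1 lower, against the same shares. Abca1, the cholesterol exporter, had 13.3 ± 0.80 in knockout and 4.34 ± 0.42 in wild type, and Stard4, a sterol carrier, had 2.91 ± 0.60 and 0.880 ± 0.32. Lipe, the hormone-sensitive lipase that also frees cholesterol from its esters, had 10.9 ± 0.90 in knockout and 33.7 ± 1.44 in wild type, a log2 change of -1.54. It was the most abundant of the list in the wild-type library, and Npc2, a lysosomal cholesterol carrier, was so in the knockout library, with 25.5 in knockout and 14.9 in wild type. After rescaling, 0 of these lists' genes were higher and 2 were lower, Lipe and Star. Star, the carrier of cholesterol into mitochondria, had 11.7 ± 1.32 in knockout and 23.5 ± 1.36 in wild type.

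TAF7L had a promoter score at 5 of the 7 measured enzymes, Mvk, Idi1, Sqle, Lss and Cyp51, against a background of 55.1% of all genes compared. The scores are the submitters' own per transcript and position class, and the header defines neither their scale nor the distances of the classes. A score of 0 was read as no assigned signal. Sqle had the highest TAF7L promoter score of the set, 88.1, followed by Idi1 with 73.8, Cyp51 with 65.6, Lss with 64.2 and Mvk with 50.8. The median of these 5 was 65.6, and genes with a score had a median of 71.7 and quartiles of 52.2 and 94.5. Of the 5 scores only that of Mvk lay outside those quartiles, below the lower one. Fdps had no TAF7L score in any class.

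Proximal TAF7L scores stood at 3 of 7 genes, against 33.8% of all genes, with 74.3 at Fdft1, 63.7 at Cyp51 and 36.8 at Mvk. Distal TAF7L scores stood at 2 of 7, against 53.6% of all genes, with 84.1 at Idi1 and 51.5 at Sqle. Pol II had a promoter score at 7 of 7 genes, against 86.7% of all genes. The Pol II promoter scores were 640 at Idi1, 519 at Sqle, 456 at Cyp51, 427 at Lss, 329 at Fdft1, 285 at Fdps and 217 at Mvk. Their median was 427, against 374 over all scored genes, whose quartiles were 209 and 583, and only Idi1 lay outside those quartiles. Fdps had the highest RNA signal of the set but the second lowest Pol II promoter score. Pol II proximal scores stood at 7 of 7 genes and distal scores at 6 of 7, against 63.3% and 77.1% of all genes.

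Some scores recur at neighbouring genes, so that 1 signal can stand in several rows. Mmab had the same promoter scores as Mvk, 50.8 for TAF7L and 217 for Pol II, and these cannot be divided between the genes. The TAF7L and Pol II promoter scores of Sqle, 88.1 and 519, stood as distal scores of Kiaa0196, 803 bp away. Rusc1, 224 bp from Fdps, carried the Pol II scores of Fdps in other classes. The shorter transcript of Fdft1 had the Pol II promoter score of 329 and the longer one had 0. The TAF7L score of 74.3 that is proximal for Fdft1 stood as distal for Neil2, a DNA repair gene 2866 bp away.

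RNA changes were also set beside the TAF7L promoter scores. The 5 genes with a TAF7L promoter score had a median log2 change of 0.44, with a range from -0.17 for Cyp51 to 0.78 for Lss. All 6827 genes with a score had a median of 0.43. Fdps and Fdft1, which had none, had 0.18 and -0.45, and all 5565 genes without a score had a median of 0.35. Fdft1, with the lowest change, carried its TAF7L score in the proximal class. ChIP was made in wild type only as labelled, so scores and changes come from different libraries.

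The promoters of the 4 enzymes with both a TAF7L promoter score and a RefSeq promoter entry are shown, since TAF7L was scored at the promoter class of these genes. The bases behind each score are not given in the binding table. RefSeq entries in GRCm38.p6 were found for 5 of 8 genes, Mvk, Idi1, Lss, Cyp51 and Hmgcs1, each from 250 bases before to 50 after the annotated start. The windows are chr5:114444019-114444318 on the plus strand, chr13:8885356-8885655 on the plus strand, chr10:76531355-76531654 on the plus strand and chr5:4104648-4104947 on the minus strand. Capitals mark CCAAT and GGGCGG, or ATTGG and CCGCCC where they lie on the other strand, and each is written 5′ to 3′ in the direction of the gene.

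Mvk: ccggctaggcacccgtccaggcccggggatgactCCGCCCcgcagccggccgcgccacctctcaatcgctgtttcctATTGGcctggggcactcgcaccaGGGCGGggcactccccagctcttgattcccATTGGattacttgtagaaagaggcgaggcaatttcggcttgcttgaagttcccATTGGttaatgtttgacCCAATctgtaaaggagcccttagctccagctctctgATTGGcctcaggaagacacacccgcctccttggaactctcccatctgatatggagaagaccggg

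Idi1: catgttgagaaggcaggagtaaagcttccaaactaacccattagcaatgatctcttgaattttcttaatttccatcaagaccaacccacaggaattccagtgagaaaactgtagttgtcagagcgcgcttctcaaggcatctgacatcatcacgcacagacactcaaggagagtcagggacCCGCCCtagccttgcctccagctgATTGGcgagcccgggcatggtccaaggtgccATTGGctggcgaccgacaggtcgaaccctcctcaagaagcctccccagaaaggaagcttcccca

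Lss: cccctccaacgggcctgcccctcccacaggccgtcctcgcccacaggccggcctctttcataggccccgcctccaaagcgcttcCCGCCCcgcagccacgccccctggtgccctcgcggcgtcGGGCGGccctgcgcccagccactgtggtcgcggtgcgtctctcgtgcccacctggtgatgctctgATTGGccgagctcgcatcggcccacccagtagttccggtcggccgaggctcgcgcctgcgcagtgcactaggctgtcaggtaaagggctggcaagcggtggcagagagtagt

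Cyp51: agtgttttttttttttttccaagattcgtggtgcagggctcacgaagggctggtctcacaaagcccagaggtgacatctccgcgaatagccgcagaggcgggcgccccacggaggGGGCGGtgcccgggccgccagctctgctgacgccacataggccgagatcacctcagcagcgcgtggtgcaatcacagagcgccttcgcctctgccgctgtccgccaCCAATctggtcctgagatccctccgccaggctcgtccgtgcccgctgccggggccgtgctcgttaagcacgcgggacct

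CCAAT, the box bound by the factor NF-Y, was found in all 5 promoters, against 37.4% of 32851 RefSeq promoters. GGGCGG, the core of the box bound by Sp1, was also found in all 5, against 35.7%. Mvk held 5 matches of CCAAT and 2 of GGGCGG, Idi1 held 2 and 1, Lss held 1 and 2, and Cyp51 held 1 and 1. Relative to the annotated start, the nearest CCAAT matches began at -14 in Mvk and Idi1, at -29 in Cyp51 and at -62 in Lss. TATAAA was found in 0 of 5, against 13.6% of promoters, and TGACGTCA, the full cAMP response element, in 0 of 5, against 1.79%. TCACNCCAC, a form of the sterol response element, was found only in Hmgcs1, against 1.24%. Only these exact strings were searched, so other forms of the cAMP and sterol response elements may be present in the windows. Both strands were searched, and the capitals do not overlap each other. GC content was 58.7% in Mvk, 52.3% in Idi1, 71.0% in Lss and 64.7% in Cyp51, with a median of 52.7% over all promoters. A match of letters is a description of these windows and not a site of binding.

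Genes with the profile closest to that of the set were sought among 12385 others by distance in 4 values, the log2 signals in both RNA libraries and the log2 TAF7L and Pol II promoter scores, each with 1 added. The centre was the median over the 7 measured enzymes, with signals of 16.8 in knockout and 17.5 in wild type and scores of 64.2 for TAF7L and 427 for Pol II. Traf3ip1 was nearest, at a distance of 0.10 log2 units, with signals of 17.4 in knockout and 18.2 in wild type. Fto followed at 0.12, Pacs1 at 0.15, Ccdc103 at 0.16 and Zfpl1 at 0.18. The likeness is to this centre and not to each enzyme. Wild-type signals of the enzymes ran from 2.11 for Mvk to 73.4 for Fdps, and Fdps and Fdft1 had no TAF7L promoter score. The likeness rests on 4 libraries and says nothing of function.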

How the data were processed

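The authors deposited an expression table of 55350 transcripts and a binding table of 55419 transcripts. Per the file headers, the expression table gives a mean and SD of an expression signal per genotype, a log2 value of wild type over knockout and an SD to mean ratio. The deposited binding table gives a score for TAF7L and one for Pol II in 3 position classes, per the file headers. The submitters' processing notes name Bowtie, TopHat and Cufflinks and the build mm9, with no version. How peaks were called and how IgG entered the scores is not given in the sources.

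File starts count from 0 and are printed with 1 added. Names were matched to RefSeq GRCm38 symbols, with older symbols accepted on the same chromosome only (46879 transcripts matched, 8471 did not). The transcript with the highest mean stands for a gene. Changes were computed with 1 added, from the signals and not from the authors' log2 ratio, for genes averaging 1 or more, which understates the change of low genes. A gene had a promoter score where any transcript had one. With 1 library per group no p-value is given. The table names no read counts, so precision is known only from the deposited SD. The script was tested on simulated data with planted changes well past 2-fold and without the 1 added to signals. That run does not show how calls of low genes behave.

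The members and lists were chosen with earlier results of these data known. Text names all members, 13 other enzymes, the called and the most abundant genes of the regulator, transport and prenyl lists, and the 5 nearest genes by profile. Some enzymes that the list held are not reported here, and list counts were made without them. Star, Insl3, Ldhc, Clu, Mmab, Idi2, Ctsb, Rusc1, Neil2 and Kiaa0196 were named after their values were seen. Alternatives were other pseudocounts, filters, scaling, transcript choices and score limits. Calculations used Python 3.11 with pandas 2.3.3.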

Additional observations from a re-analysis of the deposited data

How the results depend on the processing

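The counts of 0 higher and 0 lower among the 7 measured enzymes held under all 7 alternatives for pseudocount, filter, scaling and transcript choice. Lss was nearest to a call, with 0.99 without a pseudocount. The median log2 change of the set, 0.18, was -0.051 with a minimum mean of 5, where Mvk and Lss drop out, and -0.30 after scaling knockout signals so that the median gene did not change. Idi1 and Fdps changed sign only under that rescaling, and the other 5 kept their sign wherever a value was given. The genes higher in the knockout library over the whole table, 911, became 2033 with a pseudocount of 0.1, 2218 with none and 127 after rescaling, and the lower ones, 906, became 1577 after rescaling. The other enzymes called higher, 3, became 6 with a pseudocount of 0.1 and 6 with none, adding Dhcr7, Hsd17b7 and Mvd, and 0 after rescaling. TAF7L promoter scores stood at 2 of 7 enzymes, Idi1 and Sqle, when the score had to reach the median of non-zero scores, 71.4. All genes with a score had a median of 71.7, so this limit removes many genes outside the set as well. The share of all genes that reach it was not computed. No library could be left out, since each group has 1. No paired analysis was possible because each group has 1 library and no test was made. Among the 7 enzymes, Mvk and Lss have the largest deposited SDs relative to their signals, and what depth allows could not be computed without read counts.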
